A study of Mus musculus with 3 samples.

Results

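The genes examined here were 5 connexin genes of the cardiovascular system, Gja1, Gja3, Gja4, Gja5 and Gjc1, out of 22367 protein-coding genes of the mouse annotation. For each gene, every NKX2-5 peak whose midpoint lay within 100 kb of the gene body was collected from both peak lists, and where there was none, the nearest peak of each list within 1 Mb. The chromatin came from fixed hearts of Parkes mouse embryos at E11.5 and was precipitated with an antibody against NKX2-5. The labels name no mutation or treatment. Both NKX2-5 libraries, S1 and S4, belong to this single condition, and the Input library was not used here. No label says that the duplicates came from separate pools of embryos. A peak is a stretch of the mm9 genome that the peak caller found enriched. Its score grows with the strength of the evidence, as 10 multiplied by the negative log10 p of the caller. S1 held 4418 peaks and S4 held 5441, with lowest scores of 140, and 2546 regions were shared, meaning that peaks of both lists overlapped by at least 1 bp. Read numbers were not used, so depth is unknown and a score was read by its rank within its own list. Peak lists hold no RNA level, so cardiac marker genes could not be checked by expression.

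Connexins are the subunits of gap junctions, channels that join neighbouring cells and let ions and small molecules pass between them. In heart muscle they carry the electrical impulse from cell to cell. Gja5 encodes Cx40, the connexin of atrial muscle, of the ventricular conduction system and of arterial endothelium. Gja1 encodes Cx43, the main connexin of the working myocardium. Gjc1 encodes Cx45, found in the early heart tube and later in the nodes. Gja4 encodes Cx37 of endothelial cells, and Gja3 encodes Cx46, best known from the lens. NKX2-5 is a homeodomain factor that recognises the core AAGTG, and MEIS1 recognises TGACA.

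The sequences below are shown because they lie under the shared peaks nearest to Gja5, Gja1 and Gjc1. The first is the middle of the Gja5 region, at chr3:96866868-96867068 (mm9, plus strand), with each AAGTG and TGACA in capitals, written as CACTT or TGTCA where the match is on the other strand. The others are 41 bp around the form GTGNTGACA, with the 9 matching bases in capitals. They lie at chr10:56700733-56700773 on the plus strand and at chr11:102505769-102505809 on the minus strand.
Gja5 region: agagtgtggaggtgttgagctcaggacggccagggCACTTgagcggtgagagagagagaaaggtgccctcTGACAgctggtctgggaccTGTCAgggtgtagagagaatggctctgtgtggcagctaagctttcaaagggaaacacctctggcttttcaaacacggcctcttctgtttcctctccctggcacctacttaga
Gja1 region: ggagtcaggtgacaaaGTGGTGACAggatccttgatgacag
Gjc1 region: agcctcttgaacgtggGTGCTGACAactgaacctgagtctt

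Gja5 was the only member with an NKX2-5 peak within 100 kb, and it had 1 of the highest-ranked regions of both lists. S1 had 1 peak within 100 kb of the 5 genes and S4 had 4, a mean of 2.5 ± 2.12 (SD, n = 2 libraries), and all of them lay inside the Gja5 gene body. Among all coding genes, 38.4% had an S1 peak, 44.6% an S4 peak and 24.3% a shared region within 100 kb. The members' count, 1 of 5 in each case, was near the background for shared regions and is no result about the members as a set. The other 4 members had no peak of either library in this window, as did 47.1% of coding genes. Their nearest peaks lay from 155 kb (Gjc1) outward.

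**Figure D1:**
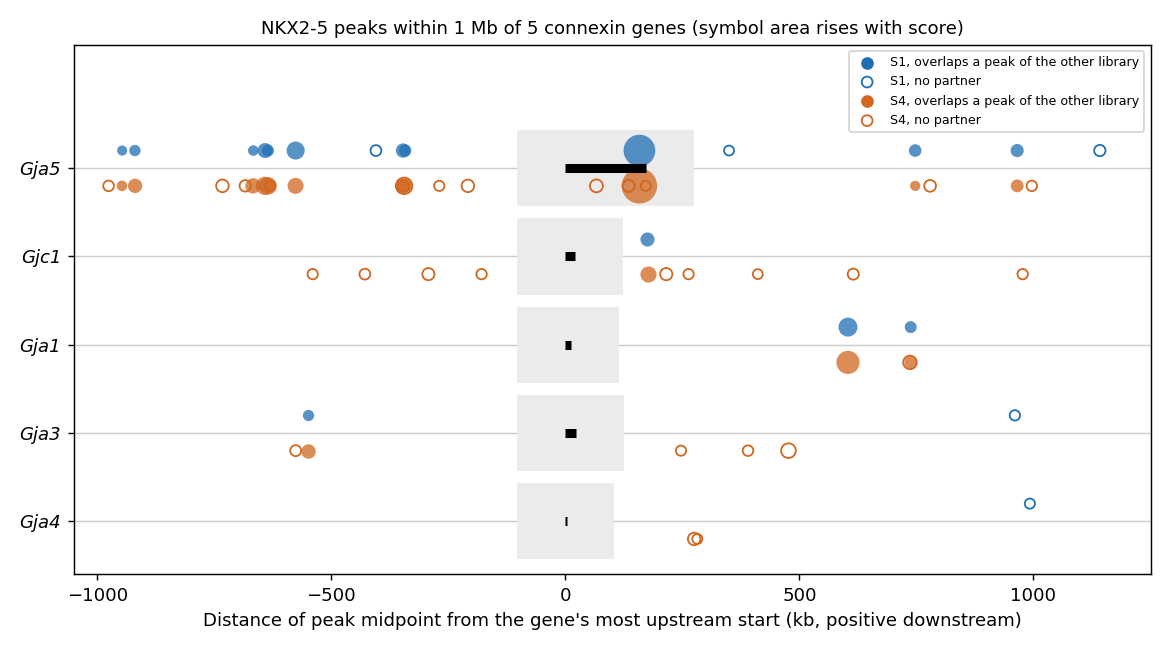
Positions of the NKX2-5 peaks of S1 (blue, upper row of each gene) and S4 (orange, lower row) within 1 Mb of the 5 connexin genes, in kb from the most upstream annotated start of each gene. Black bars are gene bodies, grey blocks reach 100 kb to either side, filled symbols overlap a peak of the other library, and only the grey block of Gja5 holds peaks.

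At Gja5 the shared region lay in chr3:96866655-96867281, a stretch of 627 bp that both peaks covered. The S1 peak was this stretch and scored 2369.5, which placed it at rank 17 of 4418. The S4 peak, chr3:96866344-96867533, scored 2978 and held rank 16 of 5441. Both libraries thus placed the region in the top 0.385% and 0.294% of their peaks. The midpoints lay 29.5 bp apart, and the score in S4 was 1.26 times that in S1 (log2 ratio 0.33). Of all shared regions, 9, this one included, scored at least as high in both lists, and 0.116% of coding genes (26 of 22367) had such a region within 100 kb.

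Where the region lies relative to Gja5 depends on the transcript. In the annotation Gja5 spans 172.7 kb, chr3:96708616-96881339 on the plus strand, because of the Ensembl transcript Gja5-201 with 4 exons. By that transcript the region is intronic, 158 kb after the start, so a window of 100 kb drawn from that start instead of the gene body left Gja5 with 0 shared regions. The manually annotated transcripts Gja5-001 and Gja5-002 are 21.2 kb and 18.5 kb long and start at the same base. By Gja5-001 the region lies 30.6 kb downstream of the start and 9.41 kb past the end of the transcript. No other coding gene has a start closer to it.

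S4 had 3 more peaks in the Gja5 gene body, none of which overlapped an S1 peak. The strongest, chr3:96774699-96775406, scored 311 (rank 1573) and lay in an intron of Gja5-201, 61.3 kb upstream of the start of Gja5-001. The next, chr3:96843385-96844143, scored 260 (rank 2118) and lay 7.43 kb downstream of that start. The last, chr3:96880276-96880877, scored 150 (rank 4863) over the final exon of Gja5-201. All 3 were far below the shared region, and S1 had no peak of score 140 or more at these places.

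**Figure D2:**
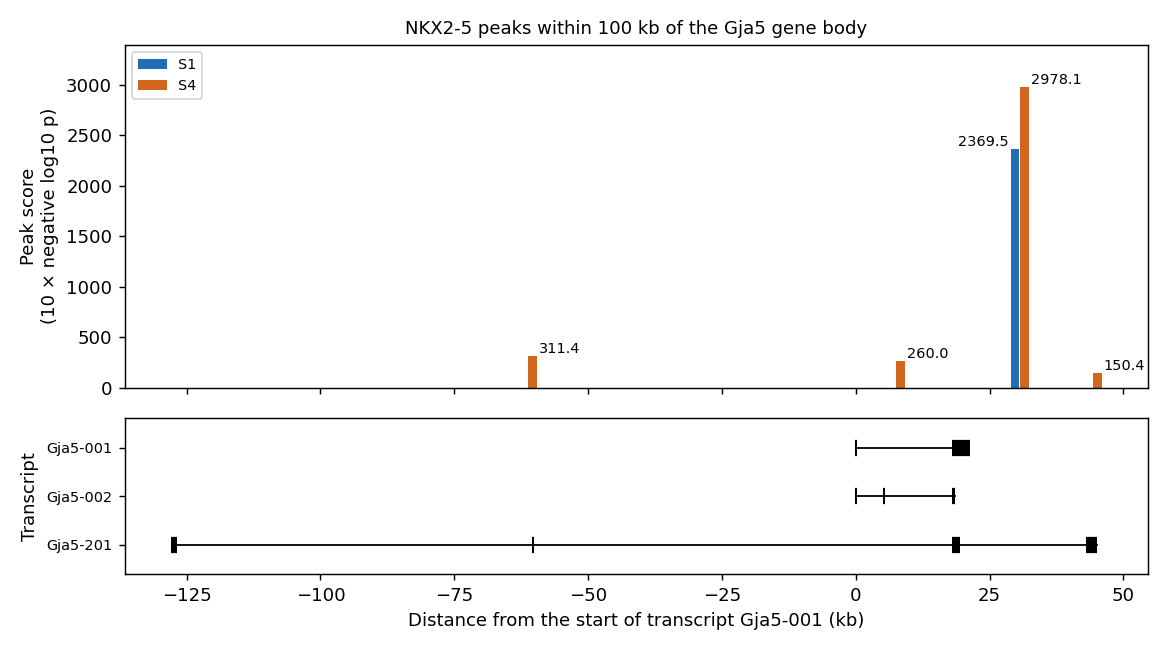
Scores of the peaks within 100 kb of the Gja5 gene body in S1 (blue) and S4 (orange), above the 3 annotated transcripts with exons as blocks, in kb from the start of Gja5-001. Bars are widened and drawn side by side, so they are not peak widths, and the pair of 2369.5 and 2978.1 stands 30.6 kb downstream of the start while the other 3 S4 bars stay under 312.

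Gja1 lies on chr10:56097106-56110225. Its nearest peak in either list belonged to a shared region 591 kb downstream of the gene body, where both peaks covered chr10:56700576-56701268. It scored 789 in S1 (rank 231) and 1219 in S4 (rank 134), 1.54 times as high in S4, and the S1 peak lay wholly inside the wider S4 peak. The region is intergenic, and Gja1 was the fourth nearest coding gene by start, of which Gm9956 was the nearest at 236 kb. Between Gja1 and Hsf2, a heat shock factor gene that the study paired with Gja1 in naming a tested region, a second shared region stood 725 kb from Gja1 and scored 254 in S1, against 291 in S4. S4 had 1 more peak without a partner nearby, which scored 353. In the body of Hsf2 itself, a shared region in an intron scored 286 in S1 and 337 in S4.

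Gjc1 lies on chr11:102660893-102681014 on the minus strand. Its nearest region was shared and lay just outside the window, 155 kb downstream of the gene body, and both peaks covered chr11:102504970-102505940. The scores were 391 in S1 (rank 793) and 544 in S4 (rank 632), a ratio of 1.39. The region is intergenic, 19.6 kb upstream of the start of Gm1564, and 3 coding genes (Gm1564, Ccdc43 and Adam11) lie between it and Gjc1. S1 had this 1 peak within 1 Mb of Gjc1, whereas S4 had 10. The next in S4 were a peak of 170.5 at the promoter of Dcakd, 179 kb upstream, and a peak of 271 at the promoter of Fzd2, a Wnt receptor gene, 195 kb downstream.

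Gja3 lies on chr14:57654445-57676867 and the libraries differed in their nearest peak. In S4 it was a peak of low score, 159 (rank 4423), 225 kb away at the promoter of Zmym5 and without a partner. In S1 it was 550 kb away in an intron of the nuclear export gene Xpo4, with a score of 216 (rank 2146). This peak overlapped one of S4 with a score of 419 (rank 987), the largest ratio between the libraries among the 5 nearest shared regions, 1.94. In all, 7 coding genes lie between Gja3 and this region, among them its connexin neighbours Gjb2 and Gjb6.

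Gja4, on chr4:126988665-126991283, had no region shared by both lists within 1 Mb. The nearest S4 peak lay 273 kb away, past 5 coding genes and close to Sfpq, an RNA-binding protein gene, and scored 288 (rank 1796). The nearest S1 peak lay 990 kb away at the promoter of Adprhl2 and scored 157 (rank 3603). Neither had a partner. The nearest shared region was 1106 kb away in an intron of Csmd2, with 212 in S1 and 199 in S4. It was the only one of the members' nearest shared regions with a lower score in S4 (log2 ratio -0.09).

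The order of the 5 regions by score was the same in both libraries. Gja5 came first, then Gja1, Gjc1, Gja3 and Gja4 in each list, although Gja3 and Gja4 were almost level in S1 (216 and 212). Their log2 ratios of S4 to S1 ran from -0.09 to 0.96. Over all shared regions the median log2 ratio was 0.16, and 10% of regions lay below -0.65 and 10% above 1.03. All 5 ratios were therefore within the middle range of the series. Whether a ratio reflects depth or enrichment cannot be told apart.

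**Figure D3:**
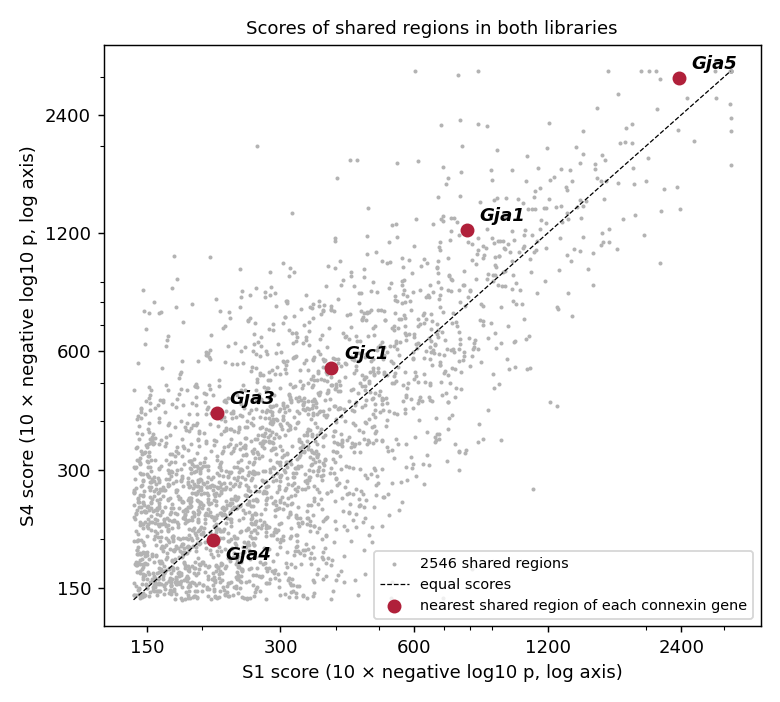
Scores of the 2546 shared regions in S1 and S4 on log axes (grey), with the nearest shared region of each connexin gene in red and the line of equal scores dashed. Gja5 sits at the upper end in both libraries, while Gja3 and Gja4 sit among the weaker regions of S1.

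Distances were also read against all genes. The nearest shared region lay inside the gene body at Gja5, as it did at 4.82% of coding genes, and 4 of the 5 members had a shared region within 1 Mb, as 80.1% of coding genes did. The median distance over coding genes was 322 kb. Gjc1 at 155 kb was closer than that, and 68% of genes had a region as far or farther. Gja3 and Gja1 were farther, with 35.1% and 33.1% of genes at their distance or beyond. Gja4 was the farthest of the 5, with 17.6% of genes as far or farther.

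**Figure D4:**
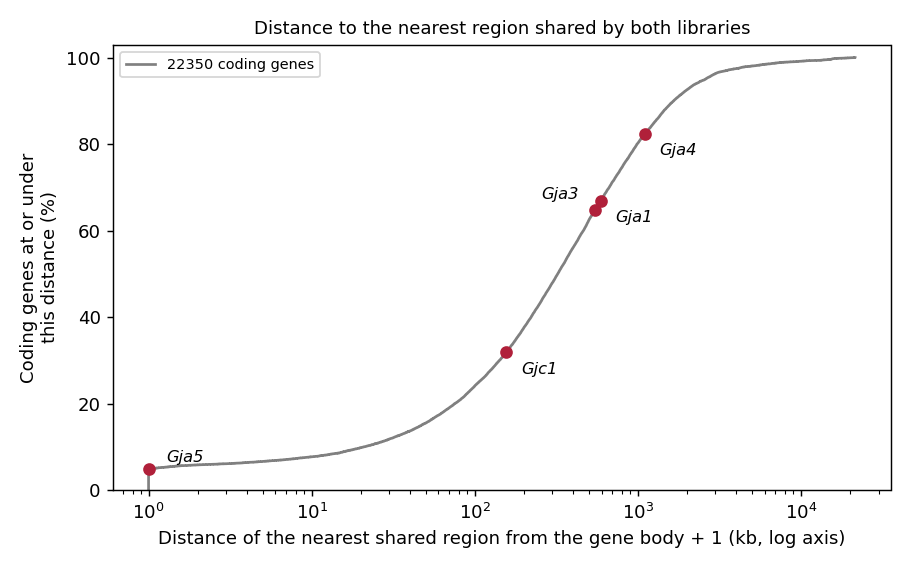
Cumulative share of 22350 coding genes by the distance in kb from the gene body to the nearest shared region, plus 1, on a log axis, with the 5 connexin genes in red. Gja5 is at 0 kb, Gjc1 at 155 kb is below the median of 322 kb, and Gja3, Gja1 and Gja4 are above it.

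The 4 genes without a peak of their own lay in stretches that held no peak of either list. Around Gja1 this stretch was 2862 kb long and held 5 coding genes, and 13.8% of the 18650 coding genes without a peak in their body and with a peak on each side had one as long or longer. Around Gja4 it was 1380 kb (26.2% of genes as long or longer) and held 11 coding genes. Around Gja3 it was 796 kb and around Gjc1 354 kb, against a median of 661 kb. The genes compared include those with a peak outside the body but within 100 kb, which the 4 members lack. The shares and the median are therefore not for like genes and do not show that the members' stretches are long. The stretch around Gja3 took in its neighbours Gjb2 and Gjb6, so that connexin cluster was free of peaks throughout.

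Exact matches to short motifs on either strand were counted in a window of 100 bp on either side of the middle base of the nearest shared region of each member. AAGTG was present in 4 of 5 windows, in all but that of Gjc1, against 64% of all shared regions. TGACA was present in 3 of 5 (Gja3, Gja4 and Gja5) against 64.6%. The longer form TNAAGTG, which contains AAGTG, was present in 3 of 5 (Gja3, Gja4 and Gja5) against 32.3%. GGTGTGA, a form bound by T-box factors, was found in the Gja1 window only, and in 4.67% of all regions. AGATAA, a form bound by GATA factors, was in none of the 5 and in 19.1% of all regions, which says only that these letters are not in these windows. With 5 regions, these counts are a description.

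In the Gja5 window the match to TNAAGTG was centred at -62 bp from the middle, and the matches to TGACA were at -28 bp and -9 bp, on opposite strands. Over the whole stretch of 627 bp there were 3 AAGTG and 5 TGACA. The Gja4 window, from a region of far lower score, held more, with 2 AAGTG and 6 TGACA. At Gja1 the only AAGTG of the window lay 63 bp after the middle, and the whole stretch of 693 bp held 4 AAGTG and 6 TGACA.

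The form GTGNTGACA joins the end of the NKX2-5 core to the MEIS1 core with 1 base between them. It was in none of the 5 windows, against 9.54% of all shared regions. Over the whole stretch of both peaks it was present at Gja1, at -169 bp from the middle, and at Gjc1, at 334 bp. It was present in 15.4% of all stretches, whose median length was 627 bp. The Gja1 and Gjc1 stretches were the longest of the 5, at 693 bp and 971 bp, against 514 to 627 bp for the others. A longer stretch has more room for a match. At Gja1, as printed above, the bases before GTG complete an AAGTG that starts 2 bases earlier, so both cores are whole there. At Gjc1 they do not. No exact GTGNTGACA was found in the Gja5, Gja3 or Gja4 stretches.

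Among the 15 other connexin genes, 10 had no peak of either list within 100 kb (47.1% of coding genes had none), and 1 had a shared region (24.3% of coding genes did). That gene was Gjd2, a neuronal connexin, with 8 S1 peaks and 4 S4 peaks. Its strongest shared region, which scored 1639.7 in S1 and 3100.0 in S4, lay 38.6 kb away at the promoter of Actc1, the cardiac actin gene. The value 3100.0 was the highest in each list and was held by several regions, so scores may be capped there. Gjd3 and Gjd4 had S4 peaks of up to 437 and 268, and Gjb1 had an S1 peak of 199.

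Gap junctions share the intercalated disc, the contact between heart muscle cells, with adhesion and channel proteins, and 15 genes of this kind were listed for comparison. Of these, 7 had a shared region within 100 kb, 11 an S1 peak and 12 an S4 peak, and only Dsg2 had no peak. The shares over all coding genes were 24.3% for a shared region, 38.4% for an S1 peak, 44.6% for an S4 peak and 47.1% for no peak. The window was drawn from the gene body, so it is wider for longer genes, and the list was not matched to all coding genes for length. It was also chosen with results of these data known, so its counts are a description. Cdh2 (N-cadherin) had the highest summed score, with 1192 in S1 and 1391 in S4 in an intron. Dsc2, a desmosomal cadherin, had a shared region in an intron that scored 1257 in S1 and 776 in S4. The Gja5 region scored higher than both in each library.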

How the data were processed

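NKX2-5 ChIP-seq peaks of E11.5 hearts were taken from the 2 lists that the authors deposited, 1 per library, not pooled. According to the study's methods, sequencing was done on a Genome Analyzer, alignment to mm9 by BOWTIE and peak calling by MACS. The processing notes also name CASAVA 1.4. Settings and the use of the Input as control are not given in the sources used here. The score column, as the authors deposited it, was read from its values as 10 multiplied by the negative log10 p of MACS, and it is not scaled between libraries. Groups came from the labels.

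Gene bodies and transcripts were taken from GENCODE M1, which is on mm9. Coordinates count from 1. Positions within 1 kb of a transcript start were called promoters. Shared regions were built from peaks that overlapped by at least 1 bp, and pairs with a peak in common were merged. The counts of shared peaks were checked with bedtools 2.31.1. Motifs were exact matches on both strands within 100 bp of the middle base of the part common to both peaks, since summits were not used here. The design has 1 condition, so no test was made. The members were read against all coding genes. The genes, lists and window were chosen with earlier results of these data known. Named genes are the members, Hsf2, the other connexins with a peak within 100 kb, the 4 intercalated disc genes with the highest summed score in a shared region, and genes that hold or flank a member's peak. Some genes that this rule names are not reported here. Fzd2, Actc1, Dsg2, Gjb2 and Gjb6 were named after their values were seen. Alternatives changed the window (50 kb and 200 kb), the reference point, the lowest score (200), the meaning of shared, the gene types and the motif window. The procedures were tested on simulated data. Python 3.11.15 with numpy 2.4.6 and pandas 2.3.3 was used.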

Additional observations from a re-analysis of the deposited data

How the results depend on the processing

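No paired analysis was possible because there is 1 condition and no result comes from a test. Of 124 alternatives, 89 left a value in place and 35 moved it. In place means a count within 1.5-fold, a distance within 1 kb, a share within the exact 95% binomial interval of the reported one, or an unaltered median. Those based on manually annotated transcripts or the nearest transcript start were chosen after seeing the data.

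A window of 200 kb took in Gjc1, so 2 connexin genes had a peak and a shared region, with 2 shared regions and a mean of 5 peaks. The median score became 391 in S1 and 271 in S4, the median log2 ratio 0.40, and 5 other connexin genes had a shared region. Measured from the most upstream start, the shared region of Gja5 left the window and 1 S4 peak of Gja5 stayed: 0 connexin genes had a shared region, 0 shared regions remained (0 with AAGTG, 0 with TGACA), and the mean was 0.5 genes and 0.5 peaks, with a median S4 score of 311. The distances became 604 kb for Gja1, 158 kb for Gja5 and 176 kb for Gjc1. From the nearest transcript start they were 594 kb, 30.6 kb and 161 kb, and manually annotated transcripts put the Gja5 region at 9.41 kb.

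Keeping only peaks that scored 200 or more raised the median S4 score to 311 and moved the nearest shared region of Gja4 to 1201 kb. Motif windows of 25 bp on each side left 0 regions with AAGTG, where the only region counted was that of Gja5. Leaving out each library in turn gave from 1 to 4 peaks. The share of coding genes with a shared region, 24.3%, was 15.7% with 50 kb, 37.7% with 200 kb, 21.0% from the most upstream start, 15.7% with a score of at least 200, 22.4% when 50% of each peak had to overlap, 19.6% with midpoints within 150 bp, 21.5% over genes of any type and 22.4% from the nearest transcript start. The cause of these moves beyond the changed filter or window was not tested. Depth was not used here and limits the reading of peaks near the lowest score.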

Other observations

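Farther from the connexin genes, the neighbourhood of Gja5 was the densest of the 5 in peaks. Within 1 Mb of its gene body there were 14 S1 peaks and 24 S4 peaks, against medians of 4 and 5 over all coding genes, and many of them lay at other genes. Peaks stood at the histone gene Hist2h4 (scores 457 in S1 and 726 in S4), over Hist2h2bb (262 and 666), and at the promoter of Txnip, a regulator of thioredoxin (409.5 and 494). At the Txnip promoter S4 had further peaks that scored 569.5 and 239, without a partner in S1. S1 also had a peak in an intron of Notch2 that scored 217 and had no partner. Within 1 Mb of the other members, S1 had between 1 and 2 peaks and S4 between 2 and 10.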
